A study of Citrus sinensis with 24 samples.

Results

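Of 24166 sweet orange genes with read counts, 19 (0.0786%) had lower RNA in fruit of the acidless variety Succari than in each of the other 3 varieties, both in young fruit and in older, expanding fruit. The genes were chosen on measured values. In each library, reads of a gene were scaled to counts per 1000000 mapped reads (CPM), means were taken over the 3 replicates of a group, and 1 CPM was added. A gene was kept when the Succari mean was at least 1.5-fold below the lowest of the Newhall, Xinhui and Bingtang means at 45 and again at 142 days post anthesis (DPA, days after flowering). The log2 ratio of Succari to the lowest other variety is called d below, so that a negative d means lower in Succari.

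The study sequenced RNA from fruit of field-grown trees of Citrus sinensis, the sweet orange, to relate gene expression to fruit acidity. The 8 groups were the normal acid varieties Newhall and Xinhui, the acidless Succari and, between them, the low acid Bingtang, each at 45 DPA, when cells of the fruit divide, and at 142 DPA, when they expand, with 3 libraries a group and 24 in all. By the study's account, acid levels were similar across the varieties in young fruit and differed in expanding fruit. The class names are therefore used below as labels of the varieties, and do not mean that acidity differed at 45 DPA. No treatment or transgene was involved. Each variety is a single cultivar, so acidity and every other inherited difference between cultivars cannot be told apart. The study describes the replicates as biological, but which tree each came from is stated in no source used here. The libraries held 3.76 to 5.89 M (mega) uniquely mapped reads. RNA was taken from fruit tissue in bulk, and in such samples fewer cells of a type and less RNA per cell cannot be told apart.

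Citrus juice is sour because the large vacuoles of the juice cells store citric acid, which is made in mitochondria and drawn into the vacuole by a proton gradient. Pumps in the vacuolar membrane build that gradient, and in petunia petals, where acidic vacuoles colour the flower, the genes of such pumps are switched on by a complex of MYB, bHLH, WD-repeat and WRKY regulators. Acidless citrus fruit accumulate sugar while their vacuoles stay only weakly acidic. Which of the 19 genes, if any, belong to this machinery cannot be read from the data: 0 of the gene identifiers could be paired with a gene name in the reference table used here, and only Cs6g16160 is in the study's table of described genes, as a hypothetical protein of unknown function with an Arabidopsis homolog. The genes are therefore given by identifier. The beginning of an identifier, such as Cs1 or Cs7, gives the chromosome, while orange1.1 marks genes that were not placed on a chromosome.

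The values that chose the genes are given first, as a description. The median d was -0.79 at 45 DPA (range -1.89 to -0.61), a 1.73-fold lower level on the CPM + 1 scale, and -1.31 at 142 DPA (range -6.81 to -0.65), or 2.48-fold lower. Over all 20739 genes expressed well enough to be tested, the median d was 0.18 at 45 DPA and 0.25 at 142 DPA. In 16 of the 19 genes d was more negative at 142 than at 45 DPA, in some by very little (Cs7g32220, -1.07 and -1.08). As ratios of summed reads, corrected for depth and without the added 1 CPM, the order turned for Cs2g28800, 9.73-fold lower at 45 and 1.93-fold at 142 DPA, and Cs3g13210 was 1.62-fold and 1.61-fold lower. By d, 7 genes were at -1 or below at both stages. All 19 passed the filter on low values, a minimum of 0.3 CPM in at least 3 libraries. Their mean level over the 18 libraries of the other varieties ran from 2.93 to 1301 CPM with a median of 25.5 CPM. The limit was passed by 185 genes at 45 DPA and by 201 at 142 DPA, and the mirrored rule, Succari at least 1.5-fold above the highest other variety at both stages, was met by 104 genes.

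**Figure D1:**
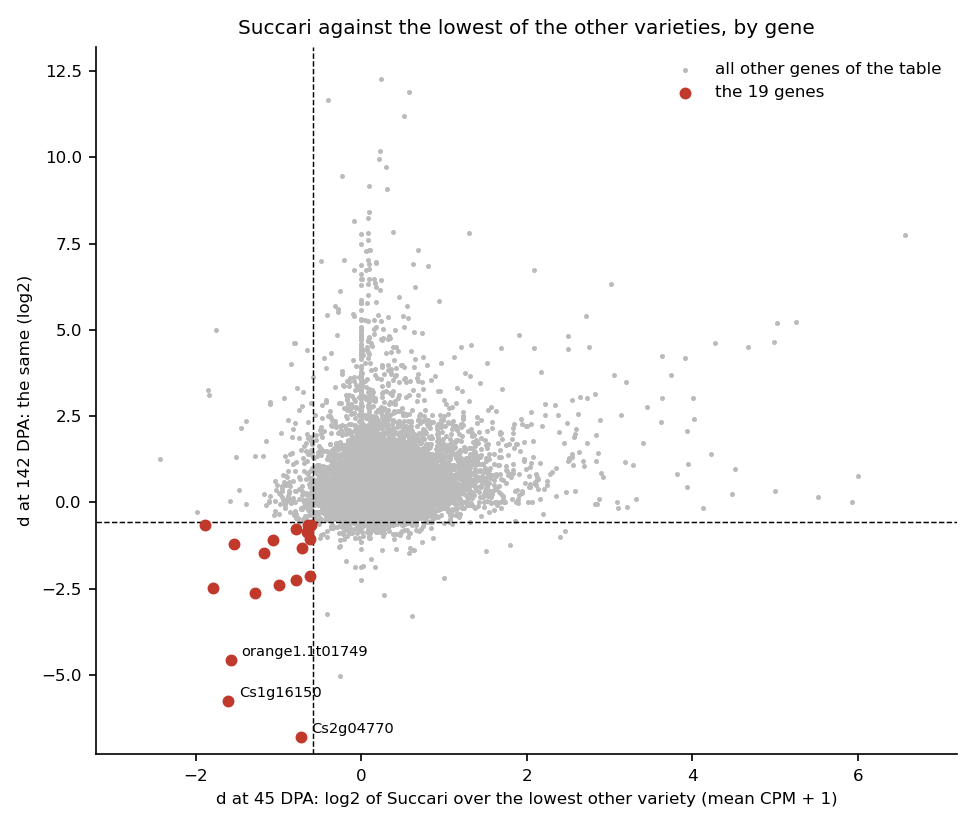
Each point is a gene, with d at 45 DPA on the horizontal axis and d at 142 DPA on the vertical axis (log2 of the Succari mean CPM + 1 over the lowest other variety); the dashed lines mark the 1.5-fold limit. The 19 genes (red) fill the lower left corner by the rule, and Cs2g04770, Cs1g16150 and orange1.1t01749 lie lowest at 142 DPA, with d of -6.81, -5.76 and -4.57.

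Since the groups were compared through their means, single libraries were examined next. All 3 Succari libraries lay below all 9 libraries of the other varieties in 17 of the 19 genes at 45 DPA (3.63% of all genes tested), in 14 at 142 DPA (2.56%) and in 13 at both stages (0.299%). The rule itself favours such genes, so these counts describe the members and are no test of them. Libraries overlapped at 45 DPA in Cs2g04770 and Cs2g28800, and at 142 DPA in Cs7g32220, Cs6g07190, orange1.1t03192, Cs1g04620 and Cs2g28800. The members nearest to the limit were Cs1g04620 (d -0.62 at 45 and -1.07 at 142 DPA), Cs5g25590 (-0.62 and -2.14) and Cs2g28800 (-0.61 and -0.67). Just outside were Cs8g02620 (-0.67 and -0.58), Cs1g26650 (-0.66 and -0.57) and Cs6g02140 (-0.76 and -0.56), all held back by their d at 142 DPA.

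To read the same measure in libraries that had no part in the choice, the rule was applied without replicate 1, 2 or 3 of every group and d was then taken from the 8 libraries left out. Without replicate 1, 16 genes were chosen, 14 of them among the 19. Succari was the lowest variety at both stages in the left-out libraries for 15 of these 16 genes, against 7.05% of all genes tested, and 10 passed the 1.5-fold limit again at both stages, against 0.145%. Without replicate 2, 23 genes were chosen, Succari was lowest in 21 of them (5.84% of all genes tested) and 12 passed the limit again (0.0771%). Without replicate 3, 15 genes were chosen, Succari was lowest in 11 (3.09%) and 7 passed the limit again (0.0771%). In each reading some of the genes did not pass the limit again in a single library per group.

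The 3 genes with the lowest d at 142 DPA were strongly expressed in fruit of the other varieties at that stage and nearly silent in Succari. Cs2g04770 stood at 638, 741 and 899 CPM in Newhall, 484, 461 and 399 CPM in Xinhui, and 220, 123 and 92.2 CPM in Bingtang at 142 DPA. The 3 Succari libraries held 0.349, 0.366 and 0.187 CPM, 5 reads in all. No library of a variety overlapped those of another. The levels followed the study's acidity classes, from normal acid through low acid to acidless, although Newhall and Xinhui, which share a class, were also apart. Bingtang, the lowest other variety, was 472-fold above Succari (95% interval 202 to 1456, exact and covering counting error only). At 45 DPA the gene was already at 61.3, 34.4 and 36.7 CPM in Newhall but at 5.37, 5.6 and 3.91 CPM in Xinhui and 1.98, 2.04 and 2.56 CPM in Bingtang. Succari gave 0.387, 2.03 and 0.351 CPM at that stage, so that its replicate 2 overlapped Bingtang. The d of -0.73 at 45 DPA therefore rests on low levels in both varieties, with little precision.

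Cs1g16150 had a like profile at a lower level. At 142 DPA it was at 302, 312 and 270 CPM in Newhall, 272, 180 and 216 CPM in Xinhui, and 85.5, 40.4 and 43.3 CPM in Bingtang. The 3 Succari libraries held 1 read together (0.175, 0 and 0 CPM), 922-fold below Bingtang with a counting interval of 165 to 36469. Newhall and Xinhui overlapped, while Bingtang lay below both and Succari below Bingtang. At 45 DPA the gene was at 45.3, 31.3 and 33.5 CPM in Newhall, 6.51, 4.75 and 5.28 CPM in Xinhui, 3.76, 2.04 and 1.97 CPM in Bingtang, and 0.193, 0 and 0.351 CPM in Succari. The 4 varieties did not overlap at that stage, where the 3 Succari libraries held 3 reads and Bingtang was 13.5-fold higher.

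The third of these genes, orange1.1t01749, separated only Succari at 45 DPA and all 4 varieties at 142 DPA. The 9 libraries of the other varieties at 45 DPA ran from 7.33 to 11.4 CPM with a median of 8.66 CPM, and Succari held 2.32, 1.01 and 2.63 CPM. At 142 DPA the levels were 93.1, 114 and 101 CPM in Newhall, 72.8, 72.9 and 71.3 CPM in Xinhui, 39.7, 22.9 and 14.4 CPM in Bingtang, and 0, 0 and 0.373 CPM in Succari. Bingtang was 209-fold above Succari (57.4 to 1731), whose libraries held 2 reads. The mean was 9.62 CPM in Newhall at 45 DPA and 103 CPM at 142 DPA, whereas it stood at 1.99 ± 0.859 CPM (SD, n = 3) and then 0.124 ± 0.215 CPM in Succari.

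Cs6g16160, the gene with a description of unknown function, was abundant at both stages. At 45 DPA it was at 144, 133 and 138 CPM in Newhall, 136, 140 and 132 CPM in Xinhui, 136, 147 and 106 CPM in Bingtang, and 52.0, 57.0 and 48.8 CPM in Succari. Newhall, Xinhui and Bingtang overlapped in young fruit, and only Succari lay apart. At 142 DPA the levels spread to 270, 270 and 244 CPM in Newhall, 101, 99.8 and 138 CPM in Xinhui, 49.5, 24.4 and 17.9 CPM in Bingtang, and 2.79, 7.14 and 2.24 CPM in Succari, with no overlap between varieties. The study lists this gene among those negatively correlated with the sugar/acid ratio of the fruit, a choice made on these same samples. It also measured the gene by quantitative PCR and reports a high correlation with its sequencing values. The PCR values it prints for Cs6g16160 are, however, highest in Succari at 142 DPA, opposite to the counts. They equal the sequencing values it prints for another gene, Cs5g03630.

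Cs5g31400 and Cs5g09970 were ordered in the same way at 142 DPA. Cs5g31400 was at 154, 172 and 172 CPM in Newhall, 67.2, 69.0 and 92.8 CPM in Xinhui, 51.7, 26.7 and 24.7 CPM in Bingtang, and 6.64, 15.6 and 17.5 CPM in Succari, with no overlap. It was ordered likewise at 45 DPA, from 12.5 ± 1.91 CPM in Newhall (SD, n = 3) through 6.92 ± 0.610 and 4.94 ± 0.778 CPM in Xinhui and Bingtang to 2.62 ± 0.544 CPM in Succari. Like Cs6g16160, with 67 reads, it was still measured in Succari at 142 DPA, with 217 reads. Cs5g09970 was rare everywhere, with 17.0, 10.4 and 13.5 CPM in Newhall, 5.96, 7.04 and 9.20 CPM in Xinhui, 4.99, 8.20 and 1.56 CPM in Bingtang, and 0, 0.366 and 0 CPM in Succari at 142 DPA. Xinhui and Bingtang overlapped in this gene, and Succari lay below all others with 2 reads, 39.9-fold under Bingtang (10.7 to 336).

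**Figure D2:**
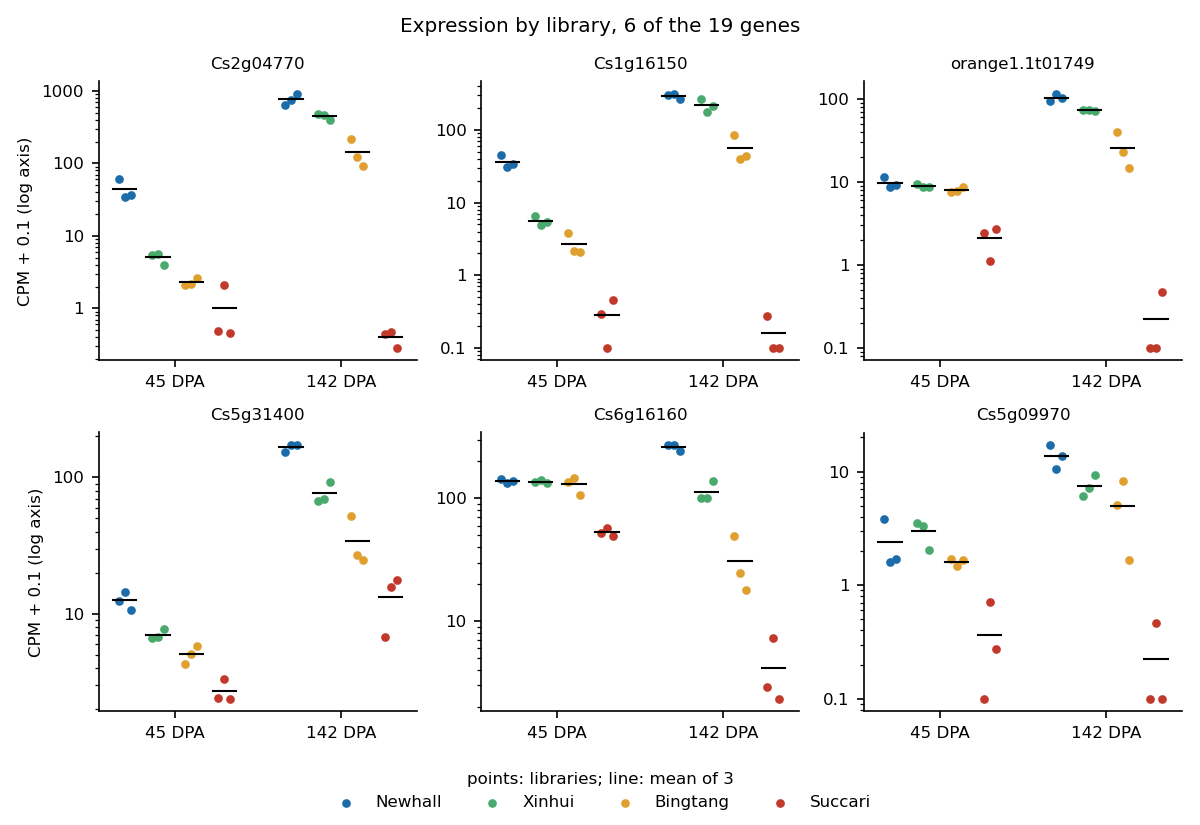
CPM + 0.1 on a log axis in every library of the 4 varieties at 45 and 142 DPA, for Cs2g04770, Cs1g16150, orange1.1t01749, Cs5g31400, Cs6g16160 and Cs5g09970; points are libraries and lines are means of 3. At 142 DPA the means step down from Newhall through Xinhui and Bingtang to Succari in all 6 panels, and points at 0.1 are libraries without a read.

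The order Newhall, Xinhui, Bingtang, Succari in mean level at 142 DPA was found in 7 of the 19 genes, these 6 and Cs7g18670. Of all genes tested, 19% had the means of the first 3 varieties in that order. Bingtang was the lowest of the other varieties in 9 members at 142 DPA, Xinhui in 9 and Newhall in 1, and at 45 DPA these counts were 9, 7 and 3. Bingtang was thus not always the lowest of the other varieties, and the shares of these counts over all genes tested were not taken.

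In Cs7g19050, Cs7g18670 and Cs2g23820 the level in Bingtang was not lower than in both normal acid varieties beyond the spread of libraries, and Succari was close to the limit of detection. This grouping was made after the values were seen. Cs7g19050 had 1.06 to 4.09 CPM in the 9 other libraries at 45 DPA (median 2.56) and no read in the 3 Succari libraries, at least 14-fold lower than in Newhall when 3 reads over the group are taken as the floor. At 142 DPA the other 9 libraries had 4.69 to 10.4 CPM (median 6.36), and Succari had 0.349, 0.183 and 0 CPM, 3 reads in all and 30.7-fold below Xinhui (10.2 to 152). The 3 other varieties overlapped at both stages, and Succari stood apart from all of them.

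Cs7g18670 was at 1.37 to 4.14 CPM (median 2.89) in the other varieties and 0.774, 0.608 and 0.351 CPM in Succari at 45 DPA. At 142 DPA the others were within the narrow range of 6.31 to 8.87 CPM (median 7.42), and Succari was at 1.05, 0.366 and 0.560 CPM. No Succari library reached any other library at either stage. Cs2g23820 was at 2.30 to 6.95 CPM (median 5.28) in the other varieties and 0.193, 0.406 and 0.176 CPM in Succari at 45 DPA. At 142 DPA Newhall had 10.1, 16.7 and 15.0 CPM, Xinhui 4.57, 4.87 and 2.08 CPM, Bingtang 4.12, 28.0 and 14.4 CPM, and Succari 1.57, 0.550 and 1.12 CPM. Bingtang was widely spread in this gene and overlapped both normal acid varieties, while all Succari libraries stayed below.

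Of the remaining members, most had reads in every Succari library and some were close to detection. The most abundant was Cs1g02750, at 2713, 2523 and 2435 CPM in Newhall, 2027, 2360 and 2447 CPM in Xinhui, 2746, 2884 and 2895 CPM in Bingtang, and 976, 1049 and 1013 CPM in Succari at 45 DPA. By 142 DPA it stood at 29.0 to 77.1 CPM (median 43.1) in the other varieties and at 12.7, 16.9 and 9.15 CPM in Succari. The 3 other varieties were alike at both stages to within 1.5-fold in their means, and Succari lay below every other library. Its d was -1.17 at 45 DPA and -1.46 at 142 DPA.

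Cs5g25590 and Cs7g32220 were at intermediate levels. Cs5g25590 had 9.31 to 30.2 CPM in the other varieties at 45 DPA (median 22.5), with Bingtang lowest at 9.31, 11.9 and 11.8 CPM, and 6.0, 7.50 and 7.02 CPM in Succari. At 142 DPA the others ran from 17.3 to 59.5 CPM (median 34.5) with Bingtang among them, and Succari remained at 6.81, 5.13 and 5.6 CPM, so that d went from -0.62 to -2.14. Cs7g32220 had 12.9 to 31.9 CPM in the others (median 18.1) and 6.38, 6.29 and 7.90 CPM in Succari at 45 DPA. At 142 DPA it had 11.9 to 76.7 CPM (median 26.5) and 8.73, 8.79 and 13.4 CPM, and the highest Succari library overlapped the lowest Xinhui library.

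In Cs3g13210, Cs8g07740, orange1.1t05830 and Cs1g04620 the Succari level was reduced by a modest factor at both stages. Cs3g13210 was at 22.5 to 42.2 CPM in the other varieties against 14.9 to 19.9 CPM in Succari at 45 DPA, and at 17.2 to 69.8 against 11.4 to 14 CPM at 142 DPA. Cs8g07740 was at 9.57 to 14.6 against 5.03 to 7.50 CPM, and then at 2.78 to 6.31 against 0.916 to 2.05 CPM. orange1.1t05830 was at 6.38 to 13.3 against 1.58 to 6.0 CPM, and then at 7.81 to 13.5 against 3.55 to 4.72 CPM. None of these 3 genes had an overlapping Succari library at either stage. Cs1g04620 was at 16.2 to 34.0 against 11.2 to 13.4 CPM at 45 DPA and at 1.74 to 6.31 against 0.733 to 1.87 CPM at 142 DPA, where the highest Succari library overlapped the lowest Newhall library.

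The other 3 members had overlapping libraries at 142 DPA. Cs6g07190 was at 2.06 to 3.91 CPM in the other varieties against 0.608 to 1.23 CPM in Succari at 45 DPA and at 41.1 to 84.6 against 20.8 to 45.9 CPM at 142 DPA. orange1.1t03192 had the lowest d of all at 45 DPA, -1.89, with 4.36 to 9.57 CPM against 0.387, 0.406 and 1.23 CPM. At 142 DPA it was at 7.89, 7.05 and 6.75 CPM in Newhall but 1.26 to 4.12 CPM over Xinhui and Bingtang, and 2.62, 1.47 and 0.187 CPM in Succari, so that Succari was apart from Newhall only. Cs2g28800 was near the limit of detection in young fruit, at 0.188 to 1.36 CPM against 0, 0.203 and 0 CPM, and at 1.48 to 15.2 against 0.916 to 2.80 CPM later, with overlap at both stages.

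**Figure D3:**
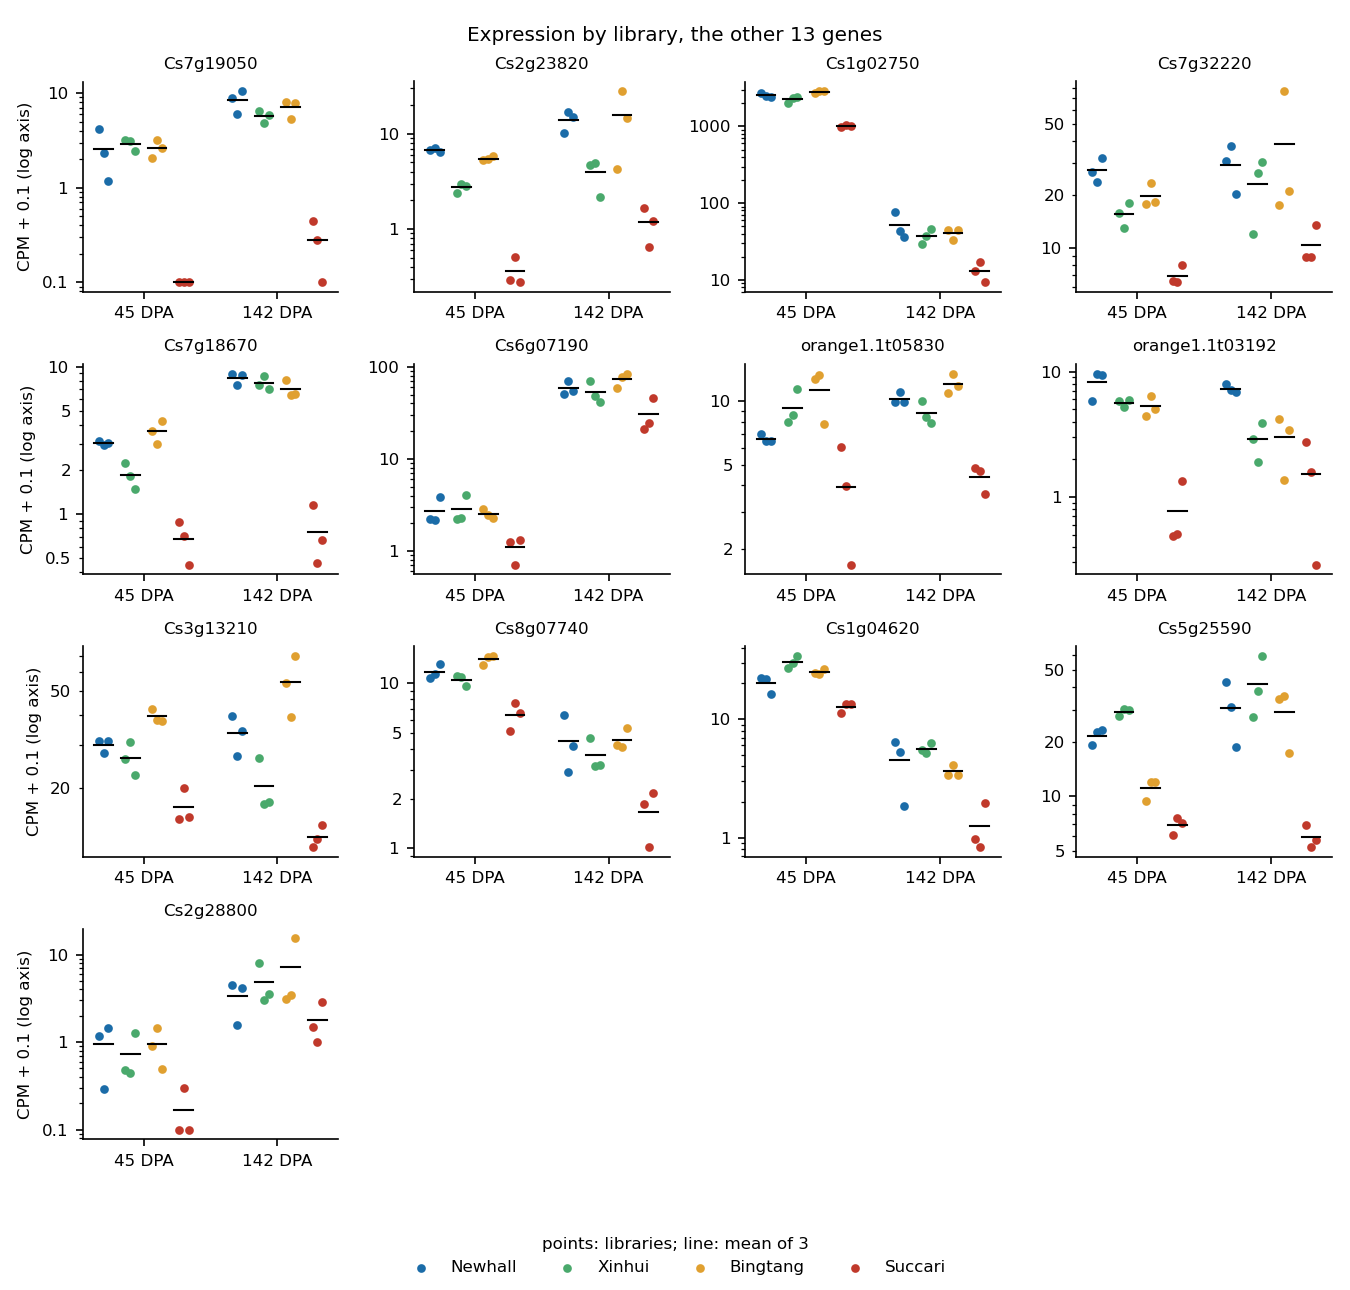
CPM + 0.1 on a log axis in every library for the other 13 genes, drawn as in the plot of the graded genes, each panel with its own scale. In Cs7g19050, Cs7g18670 and Cs5g25590 the Succari points lie far below 9 overlapping points at 142 DPA, whereas in Cs2g28800 and orange1.1t03192 they overlap the others at that stage.

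How the genes changed from 45 to 142 DPA was tested with edgeR's quasi-likelihood test over all 24 libraries, with p-values adjusted (Benjamini-Hochberg) over the 20739 genes. Genes were called at an adjusted p below 0.05 where the change was at least 2-fold. Over the mean of Newhall, Xinhui and Bingtang, 9 of the 19 genes rose (17.4% of all genes tested did) and 3 fell (21.6%). The median log2 change of the members was 0.98, against -0.01 for all genes. Because the rule asks for a Succari deficit at both stages, it favours genes that the other varieties express at both, and this comparison uses those same varieties.

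The largest rises were those of Cs2g04770, by 5.47 (log2, SE 0.183, adjusted p = 1.11e-17), Cs6g07190, by 4.50 (SE 0.172, 1.22e-16), and Cs1g16150, by 4.19 (SE 0.152, 4.37e-17). Cs5g31400 rose by 3.26, orange1.1t01749 by 2.64, Cs2g28800 by 2.55, Cs5g09970 by 1.80, Cs7g18670 by 1.47 and Cs7g19050 by 1.30. Cs1g02750 fell by 5.96 (SE 0.147, 5.89e-20), Cs1g04620 fell by 2.54 and Cs8g07740 fell by 1.60. Cs6g16160 changed by -0.54 (adjusted p = 0.00153), short of a 2-fold change, since it was higher at 142 DPA in Newhall and lower in Xinhui and Bingtang.

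In Succari 3 of the genes rose (18.2% of all genes tested) and 5 fell (17.4%), and the median log2 change was -0.22, against 0.03 for all genes. The rule used the Succari means of both stages, so these counts, the median and the tests are not independent of the choice. Cs6g07190 (4.86, SE 0.360, adjusted p = 8.34e-11), Cs2g28800 (4.29, SE 1.26, 0.00540) and Cs5g31400 (2.32, SE 0.367, 9.70e-06) rose in Succari too. Cs1g02750 fell by 6.29 (SE 0.267, 7.41e-15), Cs1g04620 fell by 3.44 and Cs8g07740 fell by 2.0, alongside their fall in the other varieties. Cs6g16160 fell by 3.69 (SE 0.334, 2.39e-09). orange1.1t01749, a gene that rose in the other varieties, fell by 3.82 (SE 0.857, 0.000538). Cs2g04770 and Cs1g16150, with the largest and the third largest rise elsewhere, were at -1.49 (SE 1.05, adjusted p = 0.231) and -1.34 (SE 1.63, 0.495) in Succari and passed no test there, where they held 14 and 3 reads at 45 DPA and 5 and 1 reads at 142 DPA, too few for a precise estimate. Whether the change in Succari differed from that in the other varieties was not tested, because the rule used both differences it is made of. Replicates 1 and 2 of Succari at 142 DPA had high levels of seed genes, as given below, and without them orange1.1t01749 was at -2.44 in Succari (adjusted p = 0.0586).

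**Figure D4:**
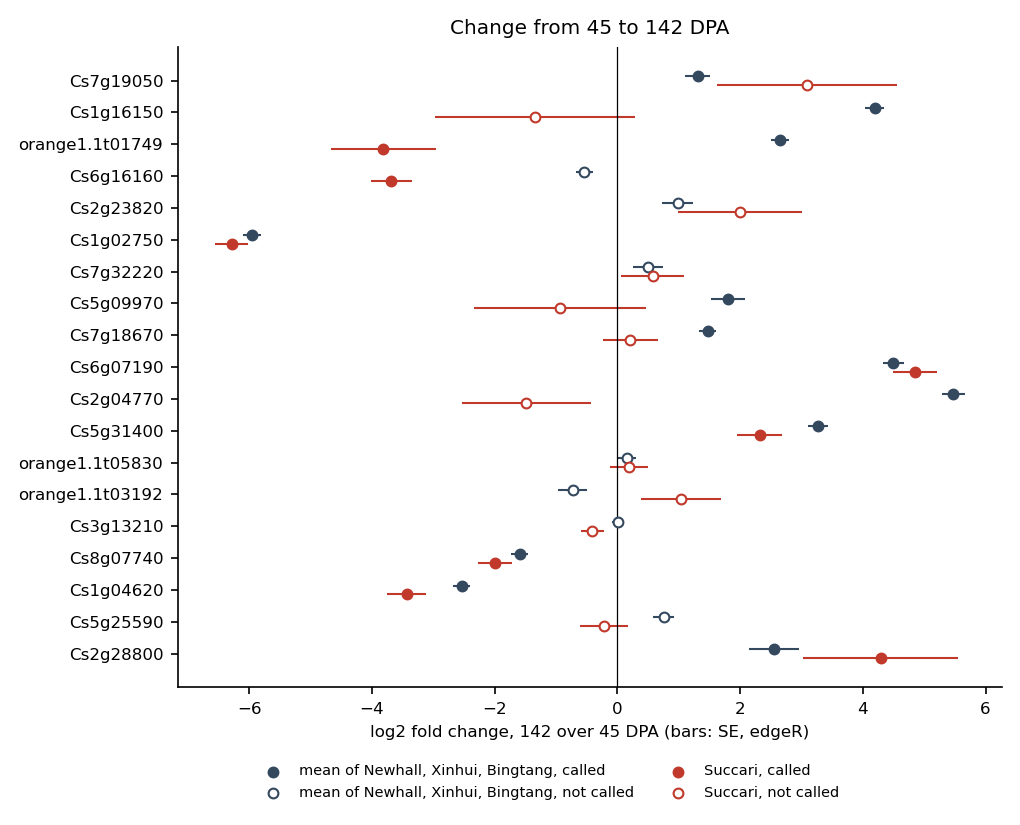
Log2 fold change from 45 to 142 DPA of the 19 genes, as the mean of Newhall, Xinhui and Bingtang (dark) and in Succari (red), with standard errors from edgeR; filled points passed both the adjusted p and the 2-fold limit. orange1.1t01749 is called in opposite directions (2.64 and -3.82), and Cs2g04770 and Cs1g16150 are called in the other varieties but have wide errors and no call in Succari, while the falls of Cs1g02750, Cs8g07740 and Cs1g04620 are called in both.

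Succari is not the only variety with reduced acidity in expanding fruit. The low acid Bingtang took part in the choice, since every member had to be lower in Succari than in Bingtang and Bingtang was the lowest other variety in 9 members at each stage, so the following tests are not independent of it. Bingtang was compared with the mean of the normal acid varieties Newhall and Xinhui. At 142 DPA 5 of the 19 genes were lower in Bingtang (3.34% of all genes tested) and 2 were higher (4.07%). The lower genes were Cs6g16160 (log2 fold change -2.49, SE 0.243, adjusted p = 1.16e-07), Cs1g16150 (-2.17, SE 0.194, 3.03e-08), Cs2g04770 (-2.0, SE 0.222, 7.42e-07), orange1.1t01749 (-1.74, SE 0.207, 1.94e-06) and Cs5g31400 (-1.72, SE 0.216, 3.93e-06). In the same 5 genes all 3 Bingtang libraries lay below all 6 libraries of Newhall and Xinhui, as did 7.84% of all genes tested. Cs5g09970, sixth in the same direction, was at -1.02 (SE 0.376) and missed the threshold with an adjusted p of 0.0519.

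The 2 genes higher in Bingtang at 142 DPA were Cs3g13210 (1.07, SE 0.140, adjusted p = 6.64e-06) and Cs2g23820 (1.12, SE 0.339, 0.0184). The second rests on replicate 2 of Bingtang, the highest library of that gene at 28.0 CPM: without it the change was 0.34 (adjusted p = 0.525). Without Xinhui replicate 3 the change of Cs2g23820 was 0.99, and without Bingtang replicate 3 that of Cs3g13210 was 0.87, both short of 2-fold. The median log2 difference over the members was -0.19, against -0.02 for all genes. Members low in Succari were thus found lower, higher and at a level not separated from the normal acid varieties in Bingtang.

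In young fruit 3 members were lower in Bingtang (0.555% of all genes tested) and 0 were higher by edgeR (0.603%), where DESeq2 and limma also called 0 and 3 were higher at an unadjusted p under 0.05. Cs2g04770 (-2.75, SE 0.392, adjusted p = 0.000120) and Cs1g16150 (-2.46, SE 0.318, 3.59e-05) were lower at 45 as at 142 DPA. Their comparison mean includes Newhall, which stood well above Xinhui at that stage. Cs5g25590 was lower at 45 DPA (-1.18, SE 0.282, 0.0184), and leaving out any single Bingtang library of that stage took its adjusted p to between 0.0705 and 0.118. The median difference over the members was -0.08 at 45 DPA, against 0 for all genes. Since the study describes acid levels as similar in young fruit, this contrast compares varieties and not measured acidity at that stage.

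**Figure D5:**
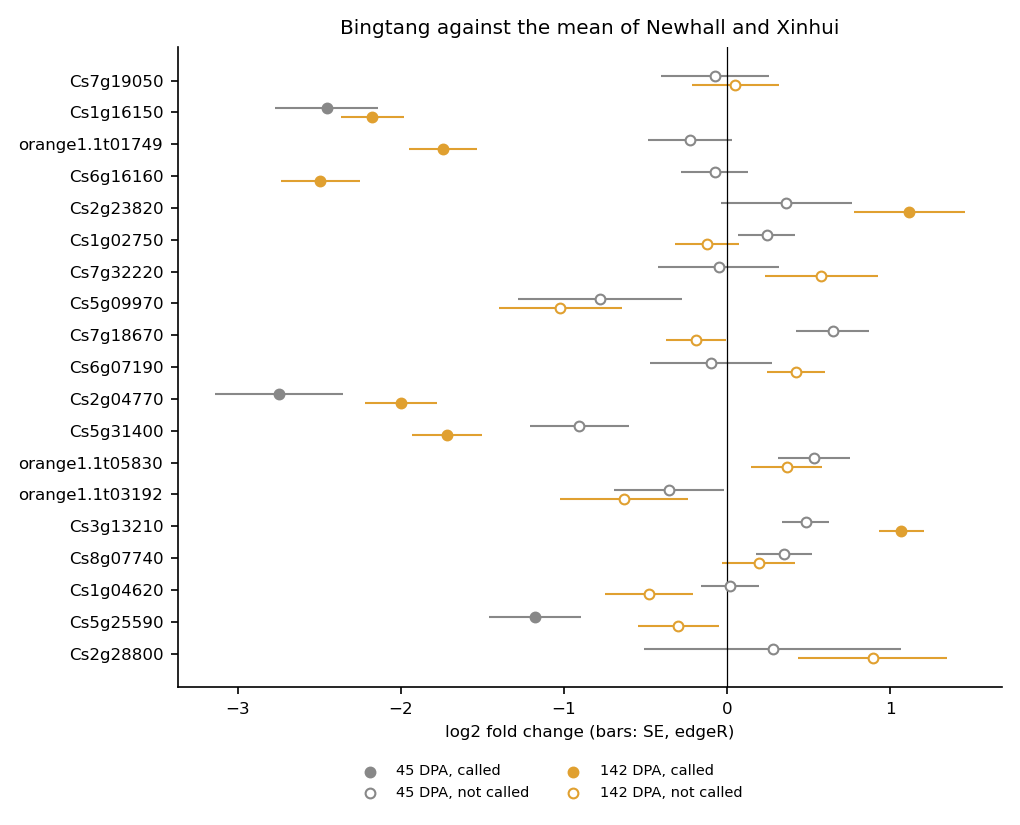
Log2 fold change of Bingtang over the mean of Newhall and Xinhui for the 19 genes at 45 DPA (grey) and 142 DPA (orange), with standard errors from edgeR; filled points passed both the adjusted p and the 2-fold limit. The 5 genes called lower at 142 DPA lie between -2.49 and -1.72, 2 of them were also called lower at 45 DPA, and Cs2g23820 and Cs3g13210 were called higher at 142 DPA.

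For orange1.1t01749 and Cs6g16160 the deficit in Bingtang appeared between the stages. The difference between the stage change in Bingtang and the mean stage change in Newhall and Xinhui was -2.42 for Cs6g16160 (log2, SE 0.308, adjusted p = 1.42e-05) and -1.52 for orange1.1t01749 (SE 0.328, 0.00273). These were the 2 members with a lower stage change in Bingtang (2.63% of all genes tested). By edgeR 0 members had a higher one (2.68%), DESeq2 and limma called 0 as well, and 2 were higher at an unadjusted p under 0.05. The mean of Cs6g16160 moved from 130 ± 21.0 to 30.6 ± 16.7 CPM in Bingtang (SD, n = 3), from 138 ± 5.25 to 261 ± 15.0 CPM in Newhall and from 136 ± 3.72 to 113 ± 21.8 CPM in Xinhui.

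Newhall and Xinhui, both of normal acidity, were compared to see how far the members differ without a difference in acidity class. Both took part in the choice, so these tests are not independent of it. At 142 DPA Xinhui was the lowest other variety in 9 members and Newhall in 1. At 45 DPA 2 members were higher in Newhall (1.49% of all genes tested), Cs2g04770 by 3.21 (log2, SE 0.326, adjusted p = 6.83e-07) and Cs1g16150 by 2.80 (SE 0.273, 3.96e-07). At 142 DPA 3 were higher in Newhall (3.71%), Cs2g23820 by 1.71 (SE 0.432, 0.00579), orange1.1t03192 by 1.18 (SE 0.411, 0.0416) and Cs6g16160 by 1.03 (SE 0.238, 0.00288). Cs6g16160 was short of 2-fold without Xinhui replicate 1 (0.90) or 2 (0.94), and the adjusted p of orange1.1t03192 was above 0.05 without any of the 3 Newhall libraries or Xinhui replicate 1 or 2 of that stage (0.0682 to 0.170), and at 0.0505 and 0.0508 without Bingtang replicate 3 or Xinhui replicate 1 of 45 DPA. By edgeR 0 members were lower in Newhall at 45 DPA (1.48%) and 0 at 142 DPA (3.08%). DESeq2 and limma also called 0, and 1 member was lower at each stage at an unadjusted p under 0.05. At 142 DPA Cs2g04770 and Cs1g16150 no longer passed the test between these varieties (0.60, adjusted p = 0.0639, and 0.25, adjusted p = 0.407). Whether the difference itself changed between the stages was not tested.

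By their identifiers the 19 genes were spread over the genome. The prefixes Cs1, Cs2, Cs5 and Cs7 each held 3 of them, Cs6 held 2, Cs3 and Cs8 held 1 each, Cs4 and Cs9 held 0, and 3 were unplaced. No 2 members were neighbours in the order of identifiers. The closest pair, Cs7g18670 and Cs7g19050, stood 36 places apart, and both were near the limit of detection in Succari at both stages and level in the other varieties at 142 DPA.

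Counted in its table, the study lists 11 genes with a negative correlation to the sugar/acid ratio, and those were set beside the 19. Only Cs6g16160 is in both sets. At 142 DPA 9 of the 11 passed the 1.5-fold limit and all 11 had a negative d, but at 45 DPA 1 passed and 5 had a negative d. For example Cs9g07750, described as an ATP sulfurylase, the first enzyme of sulfate assimilation, had d of -0.03 and -0.79. Cs7g13310, described as KCS6, an enzyme that elongates very long chain fatty acids for cuticular wax in Arabidopsis, had 0.17 and -0.72. Cs6g03950, described as the WRKY regulator TTG2 that acts in Arabidopsis hair cells and seed coat, had -0.06 and -0.19. The highest d of the list at 45 DPA was 1.00, in Cs5g24670, which had -2.18 at 142 DPA. The list was drawn from these samples, so its direction at 142 DPA is no independent result.

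Some genes known from maturing seeds were high in a part of the Succari libraries at 142 DPA. A set of 7 genes was taken from those the study lists with a positive correlation to the sugar/acid ratio on these same samples. The study describes them as oleosin, late embryogenesis and storage proteins, beta-TIP and CYS2, and calling them all seed genes is a choice made here. They summed to 3966, 4008 and 39.9 CPM in Succari at 142 DPA, against 0.341 to 33.0 CPM over all other groups. Cs5g24670, also described as a lipid transfer/seed storage protein, has a negative correlation in the study and was not in the set. Its Succari mean was 72.9 CPM at 45 DPA and 3.59 CPM at 142 DPA, below the other varieties at the later stage. With replicate 3 as the only Succari library of 142 DPA, 18 genes met the rule, 16 of them among the 19. Cs6g07190, Cs3g13210 and Cs2g28800 were the members that no longer met it. In Succari at 45 DPA the 7 genes of the set summed to 0.406 to 1.93 CPM. Their part in the levels of the members was not tested.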

How the data were processed

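Total RNA of fruit was sequenced on an Illumina platform by the authors, and the deposited values are counts of uniquely mapped reads per gene, where a dash stands for 0. For the aligner, genome build and strand setting, the sources used here state nothing. Column sums equal the totals in the headers, 3.76 to 5.89 M (mega) reads. Intervals and floors cover counting error only.

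Groups follow the cultivar and stage labels. The members and lists were chosen with earlier results of these data known. Genes named in the text are the members, among them the 8 with the lowest value of the larger d and the 4 of highest level, 3 genes on each side of the limit, and some of the study's negatively correlated list. Succari against the other varieties is the contrast the choice used, so it carries no test. All other contrasts came from 1 fit of 8 groups in edgeR 4.0.16 (quasi-likelihood, TMM scaling, R 4.3.3) on genes that reached 0.3 CPM in 3 or more libraries, with Benjamini-Hochberg adjustment over all genes tested. Genes were called at an adjusted p below 0.05 where the change was at least 2-fold. The fit was tested on simulated data. Alternatives were median-ratio scaling, no filter or a filter of 1 CPM, DESeq2 1.42.0, limma 3.58.1 on log2(CPM + 0.1), a fit of only the groups compared, a replicate block and leaving out each library, and for the choice of genes other pseudocounts, scalings and limits. Gene identifiers were matched to the RefSeq gene table of assembly DVS_A1.0 and 0 of 24166 matched, so that no gene names, coordinates or sequences are given. Tables were handled in Python 3.11.15 with pandas 2.3.3.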

Additional observations from a re-analysis of the deposited data

Results flagged for a closer look

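For 2 of the 19 genes the change from 45 to 142 DPA in Bingtang differed from the mean change in Newhall and Xinhui by a test of that difference. Cs6g16160 differed by -2.42 on the log2 scale (edgeR, adjusted p = 1.42e-05). It was lower at 142 than at 45 DPA in all 3 Bingtang libraries, which went from 136, 147 and 106 CPM to 49.5, 24.4 and 17.9 CPM, and higher in all 3 Newhall libraries. orange1.1t01749 differed by -1.52 (adjusted p = 0.00273), with a smaller increase in Bingtang, from 7.33, 7.66 and 8.67 CPM to 39.7, 22.9 and 14.4 CPM, than in Newhall and Xinhui. Both differences kept their direction and their side of the threshold under all alternatives run.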

How the results depend on the processing

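The number of genes that met the rule was 19. It became 11 with a pseudocount of 2 CPM, 7 with a limit of -1 on d, and 144 when Succari was compared with the mean of the other 3 varieties instead of the lowest. Leaving out single libraries gave 14 genes (without Succari 45 DPA replicate 1) to 23 (without Succari 142 DPA replicate 3), of which 13 to 19 were among the 19. 10 members were kept in all 24 settings with a single library left out, and 8 in all 34 settings other than the stricter limit: Cs7g19050, Cs1g16150, orange1.1t01749, Cs6g16160, Cs2g23820, Cs1g02750, Cs7g32220 and Cs5g09970. Cs2g04770 was lost without Succari 45 DPA replicate 1 or 3 and with a pseudocount of 2 CPM. No d changed sign in 1292 alternatives, but many of these could not alter it, such as leaving out a library of the other stage. The values of d also chose the genes, so this count is no test of them.

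Of the 37 calls of single genes in tested contrasts, 0 reversed in 1155 alternatives and 19 of these alternatives lost a call, in 6 results. Members that rose from 45 to 142 DPA within Succari were 3, and 5 with limma or without Succari 142 DPA replicate 3 (3 to 5 with single libraries left out). Members higher in Bingtang at 142 DPA were 2, and 1 with limma or in a fit of only the groups compared (1 to 2 with single libraries left out, 1 without Bingtang replicate 2 or 3 or Xinhui replicate 3). Members higher in Newhall than in Xinhui at 142 DPA were 3, with 1 to 4 when single libraries were left out, and 1 without Xinhui replicate 1 or 2. Members with a higher stage change in Bingtang were 0, with 0 to 1 when single libraries were left out. The causes were not tested.

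Replicate numbers did not pair the libraries: the median correlation of deviations was -0.0012 both for same-numbered pairs (-0.158 to 0.139) and for other pairs. With a replicate block, members lower in Bingtang at 142 DPA were 6 in place of 5, and every other count of members called was as without the block. Depth limits what can be said of Cs7g19050, Cs2g28800, Cs1g16150, Cs5g09970 and Cs2g23820 at 45 DPA, where the 3 Succari libraries held 0 to 4 reads, and of Cs1g16150, orange1.1t01749, Cs5g09970, Cs7g19050 and Cs2g04770 at 142 DPA, where they held 1 to 5.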
